A study of Mus musculus with 37 samples.

Results

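The genes described here encode chromatin remodellers and histone-modifying enzymes. They were chosen by symbol, as the protein-coding genes whose names begin with Smarc, Chd, Arid, Kdm, Kmt, Kat, Hdac, Brd, Setd, Ing or Sirt, without Kdm5d. Between them, 4 RNA-seq tables listed 106 such genes, 91 of them in every table and 15 in some tables only. The table of ZH oocytes listed 105 of them among 25053 genes, that of CabZ oocytes 101 of 19033, that of CabZ 2-cell embryos 104 of 24305, and that of injected 2-cell embryos 92 of 15855. The symbols Brd3os and Chd3os matched by name only: they are opposite-strand neighbours of Brd3 and Chd3 and no chromatin enzyme is known to be made from them.

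Remodellers use ATP to slide, eject or exchange nucleosomes, and fall into the SWI/SNF, ISWI, CHD and INO80 families. Histone acetyltransferases, methyltransferases and ubiquitin ligases write marks, deacetylases, sirtuins and demethylases remove them, and bromodomain, PHD finger and chromodomain proteins read them. A fully grown mouse oocyte is transcriptionally silent and carries these enzymes as stored RNA and protein, much of which is cleared and replaced when the embryonic genome is switched on at the 2-cell stage. The Hira complex, with its subunits Hira, Cabin1 and Ubn1, is the chaperone that places the histone variant H3.3 on DNA outside replication.

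The floxed Hira and Cabin1 lines and the wild-type mice were on a C57BL/6 background. That of the Zp3-Cre line was not given in the sources used here. Per the paper, littermates were used in both lines to limit differences in background. In the ZH line a floxed Hira allele, and in the CabZ line a floxed Cabin1 allele, was removed by Zp3-Cre, a transgene active in the growing oocyte of the female germline and not in the surrounding somatic cells. The controls, ZH Het and CabZ Het, were heterozygous and carried Zp3-Cre too. Oocytes were taken at the germinal vesicle (GV) stage, when the fully grown oocyte is arrested in the first meiotic prophase. For each genotype of either line there were 4 RNA-seq libraries of oocytes, and for each CabZ genotype 4 of 2-cell embryos. A further 4 libraries came from 2-cell embryos of wild-type oocytes injected with GFP RNA and 3 from oocytes injected with Zscan4d RNA, labelled Zscan4 OE, both matured in vitro and activated without sperm. ATAC-seq, which maps open chromatin, was available for 3 libraries each of CabZ Het and CabZ KO oocytes. The ages of the animals, and whether the CabZ 2-cell embryos came from fertilisation or from activation without sperm, were not given in the sources used here. Nothing in the labels ties libraries to separate animals, so p-values measure the spread between libraries, which may be technical.

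The deleted genes were examined first. In the ZH table Hira itself had between 2 and 14 reads in ZH Het and between 0 and 13 in ZH KO libraries, so its level was near the floor in both and gave no check of the genotype. Cabin1, which was not targeted in this line, was at 30.6 to 40.9 CPM in ZH Het and 7.57 to 12.1 CPM in ZH KO. In the CabZ line Cabin1 was at 10.5 to 18.8 CPM in CabZ Het and 1.48 to 5.70 CPM in CabZ KO oocytes, and at 27.1 to 53.8 CPM in CabZ Het and 7.56 to 21.4 CPM in CabZ KO 2-cell embryos, without overlap. In injected embryos Zscan4d was at 332 to 711 CPM in the GFP libraries and 336 to 403 CPM in the libraries labelled Zscan4 OE. The injected RNA was thus not seen as a higher level, and these libraries gave no check of the label. The paper reports more Zscan4 after injection than in an uninjected group, by qRT-PCR, immunofluorescence and western blot. Each library had between 5766900 and 21798021 estimated reads on listed genes. Levels are given in CPM, the reads on a gene scaled to a common library total and not divided by length, and differences as log2(CPM + 1) of KO minus Het. Tests used limma with Benjamini-Hochberg adjustment over every gene with a mean of at least 1 CPM, and a gene is called changed at an adjusted p under 0.05. Each library is RNA from a pool of cells, so less RNA per cell and fewer cells of a type cannot be told apart.

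In ZH KO oocytes the chromatin genes were mostly lower. Of 90 that passed the filter, 40 fell and 8 rose. These are 44.4% and 8.89% of the chromatin genes, beside 26.6% and 27.5% of all 13709 genes tested. Of these, 23 fell by over 2-fold and 5 rose by over 2-fold, or 25.6% and 5.56%, beside 12.9% and 16% of all genes. The median log2 difference of the 90 genes was -0.45, and that of all genes tested was -0.04. Without overlap between the groups, 37 of the 90 were lower and 8 higher, beside 22.3% and 25.3% of all genes tested. Together the chromatin genes took 3323 CPM (3128 to 3465) in ZH Het and 2513 CPM (2413 to 2684) in ZH KO. Of 51 chromatin genes under 50 kb 21 fell (41.2%), beside 24.5% of all genes of that span, and of 39 longer ones 19 fell (48.7%), beside 31.8%.

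**Figure D1:**
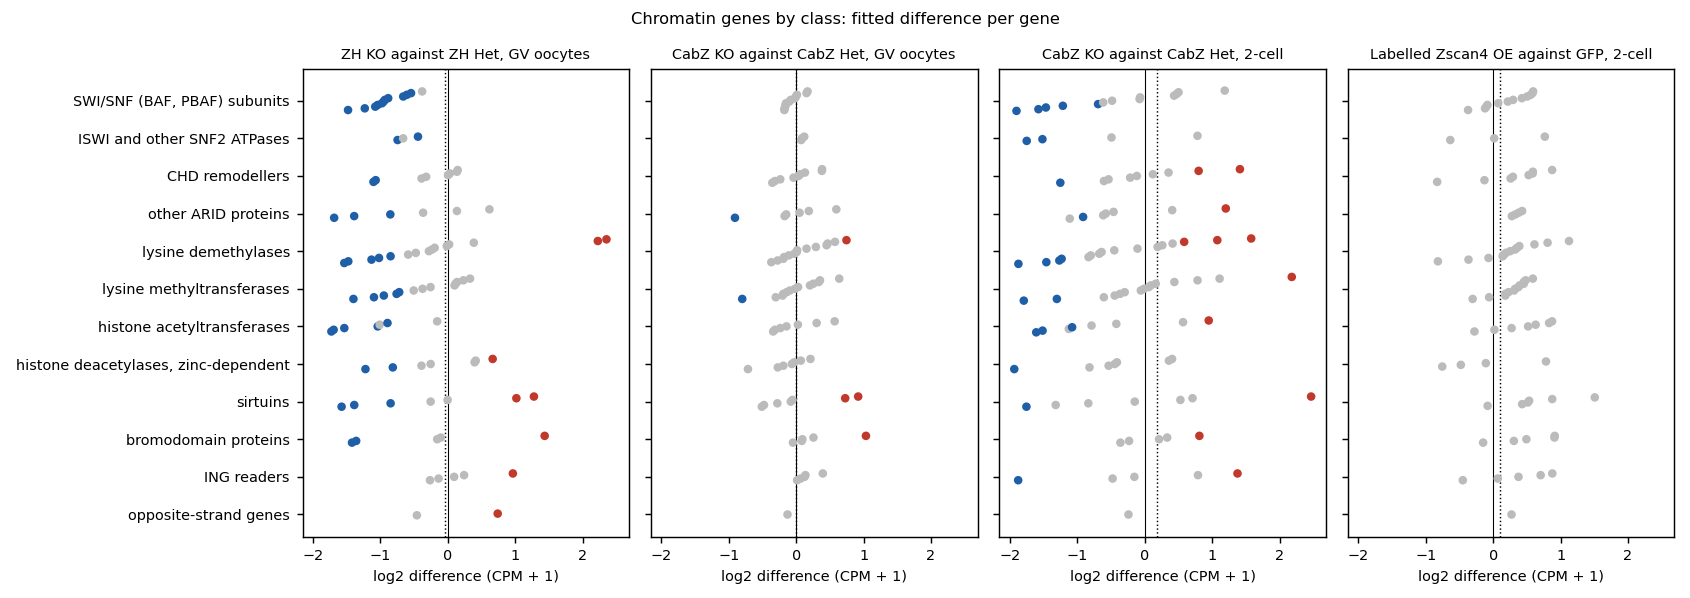
log2 difference in CPM + 1 of the chromatin genes, KO minus Het or libraries labelled Zscan4 OE minus GFP, by class and comparison. Points are genes that passed the filter, red called higher, blue called lower and grey not called, and the dotted line is the median of all genes tested. In ZH oocytes 11 of 12 SWI/SNF genes are called lower, in CabZ oocytes none is, and in injected embryos no chromatin gene is called.

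The genes that rose included a pair of closely related demethylases that remove methyl groups from lysine 4 of histone H3. Kdm5b (chr1, 134560171 to 134635286, plus strand, GRCm38) was at 4.32, 5.61, 6.15 and 4.08 CPM in ZH Het and at 50.3, 27.2, 19.1 and 28.9 CPM in ZH KO (log2 difference 2.35, SE 0.27, adjusted p = 4.53e-05). Kdm5a was at 6.27, 7.63, 6.09 and 6.82 CPM in ZH Het and at 40, 37.4, 30.5 and 32.5 CPM in ZH KO (log2 difference 2.23, SE 0.17, adjusted p = 3.63e-06). These genes had the largest rises of the list. In both, every KO library was above every Het library, which was a condition for naming the largest rises. Of all genes tested, 25.3% were higher without overlap.

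The other rises were smaller in fold. Brd8, a bromodomain subunit of the Tip60 (p400) acetyltransferase complex, was at 13 to 17.6 CPM in ZH Het and 32.1 to 61.0 CPM in ZH KO (log2 difference 1.44, SE 0.21, adjusted p = 0.000227). The sirtuins Sirt3 and Sirt1 are NAD-dependent deacylases, the first mitochondrial and the second nuclear. Sirt3 (chr7, 140863666 to 140882310, minus strand) was at 6.24, 6.65, 4.76 and 6.20 CPM in ZH Het and 14, 18.2, 17.9 and 13.6 CPM in ZH KO (log2 difference 1.28, SE 0.19, adjusted p = 0.000248). Sirt1 (chr10, 63319005 to 63381705, minus strand) was at 10.6, 10.5, 18.2 and 15.2 CPM in ZH Het and 32.4, 21.2, 27.6 and 31.9 CPM in ZH KO (log2 difference 1.02, SE 0.22, adjusted p = 0.00281). Ing4, a PHD finger reader of methylated H3 lysine 4, went from a mean of 3.51 to 7.98 CPM. Hdac1, with 27 to 68 reads per ZH Het library, went from 2.83 to 5.19 CPM (log2 difference 0.67, adjusted p = 0.0328), its groups overlapped, and the call was made in 9 of 15 alternatives. The eighth was Chd3os. The Sirt3, Sirt1 and Kdm5a models overlap other listed genes, and the counting is not stated to use strand, so reads of those neighbours cannot be told apart there. Across the list, 32 of 105 chromatin genes overlapped another listed gene in ZH oocytes and 22 of 101 in CabZ oocytes. In CabZ 2-cell embryos 31 of 104 did, and in injected embryos 19 of 92. The same limit holds for all of these, among them Kat8 and Kdm1b in CabZ oocytes.

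Among the genes that rose, the promoters of Kdm5b, Sirt1 and Sirt3 are shown because these genes rose in KO oocytes of both lines, and that of Setd4 because it had the highest level of the chromatin genes in CabZ Het oocytes. They are RefSeq windows of 300 bases, 250 before the start and 50 after it, on GRCm38.p6, read along the gene. Their positions are chr1:134559928-134560227 (Kdm5b, plus strand), chr10:63338986-63339285 (Sirt1, minus), chr7:140882260-140882559 (Sirt3, minus) and chr16:93603766-93604065 (Setd4, minus). Capitals mark the GC box GGGCGG and the ETS core CCGGAAG on either strand.
Kdm5b: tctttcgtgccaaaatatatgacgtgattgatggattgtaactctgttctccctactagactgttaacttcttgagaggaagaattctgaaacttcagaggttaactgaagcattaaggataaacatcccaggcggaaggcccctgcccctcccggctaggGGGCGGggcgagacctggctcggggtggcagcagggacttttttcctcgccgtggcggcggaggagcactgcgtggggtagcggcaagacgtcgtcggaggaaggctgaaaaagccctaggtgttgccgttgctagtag
Sirt1: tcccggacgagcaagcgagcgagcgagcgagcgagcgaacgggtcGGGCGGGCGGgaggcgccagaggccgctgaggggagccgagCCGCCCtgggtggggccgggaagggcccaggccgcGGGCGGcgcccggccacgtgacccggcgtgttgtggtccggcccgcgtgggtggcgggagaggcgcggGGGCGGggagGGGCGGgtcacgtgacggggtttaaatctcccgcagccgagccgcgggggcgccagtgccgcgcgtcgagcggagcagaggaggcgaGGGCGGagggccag
Sirt3: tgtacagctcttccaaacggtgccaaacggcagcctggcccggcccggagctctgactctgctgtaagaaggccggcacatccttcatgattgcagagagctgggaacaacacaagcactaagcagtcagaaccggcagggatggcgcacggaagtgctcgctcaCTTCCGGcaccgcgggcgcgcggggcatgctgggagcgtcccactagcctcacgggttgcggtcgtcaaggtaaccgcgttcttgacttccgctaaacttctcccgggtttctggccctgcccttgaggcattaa
Setd4: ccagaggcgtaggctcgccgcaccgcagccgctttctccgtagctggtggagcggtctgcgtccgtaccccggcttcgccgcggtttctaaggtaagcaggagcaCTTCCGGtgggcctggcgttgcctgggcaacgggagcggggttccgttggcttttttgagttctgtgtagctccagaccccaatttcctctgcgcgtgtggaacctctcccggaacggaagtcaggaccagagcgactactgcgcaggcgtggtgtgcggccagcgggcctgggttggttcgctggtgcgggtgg
The Kdm5b window held 1 GC box, that of Sirt1 7 GC boxes and 2 E-boxes (CACGTG), and those of Sirt3 and Setd4 1 ETS core each. The RefSeq start of Sirt1 lies 42669 bases from the start in the expression table, and that of Setd4 248 bases.

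Across the list, 83 of the 106 genes had RefSeq windows, 117 in all. Their median GC content was 63%, beside 58.3% for all 17506 windows, and the median ratio of observed to expected CpG was 0.839 beside 0.657. A GC box on either strand was in 84 windows, or 71.8%, beside 52.9% of all windows. The CCAAT box (CCAAT) was in 38.5% beside 38%, the TATA box (TATAAA) in 5.13% beside 9.77%, the E-box in 4.27% beside 8.72%, and the ETS core in 17.1% beside 13.4%. Motifs were searched on both strands and counted separately, and neighbouring matches may share letters. A match is a run of letters, not a binding site.

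The SWI/SNF complexes (BAF and PBAF) evict or slide nucleosomes at promoters and enhancers. Transcripts of nearly all their tested subunits among the genes chosen by symbol were lower. In ZH KO, 11 of 12 tested subunits fell, beside 26.6% of all genes tested. Of the 11, 4 fell by over 2-fold, and the median log2 difference of the 12 was -0.94. Smarcb1, a core subunit, was at 98.9, 92.8, 72.0 and 71.9 CPM in ZH Het and 32.9, 66.5, 23.1 and 28.8 CPM in ZH KO (log2 difference -1.23, SE 0.28, adjusted p = 0.00373). Every KO library was below the lowest Het library. Smarce1, another core subunit, went from 33.8 to 49.0 CPM in ZH Het to 13 to 26.4 CPM in ZH KO (log2 difference -1.04, SE 0.22, adjusted p = 0.00265). Arid2, which marks PBAF, had a log2 difference of -1.08 (15.7 to 6.96 CPM, adjusted p = 0.00209). Smarca4, the ATPase Brg1, went from a mean of 11 ± 1.64 (SD, n = 4) to 5.32 ± 1.26 CPM (SD, n = 4; log2 difference -0.93, SE 0.20, adjusted p = 0.00277). Smarcd2 varied more, at 47.0 to 84.1 CPM in ZH Het and 7.31 to 59.7 CPM in ZH KO, and the groups overlapped (log2 difference -1.48, adjusted p = 0.0209). The BAF subunits Arid1a and Arid1b, named after their values were seen, fell by 0.98 and 0.95 on the log2 scale.

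**Figure D2:**
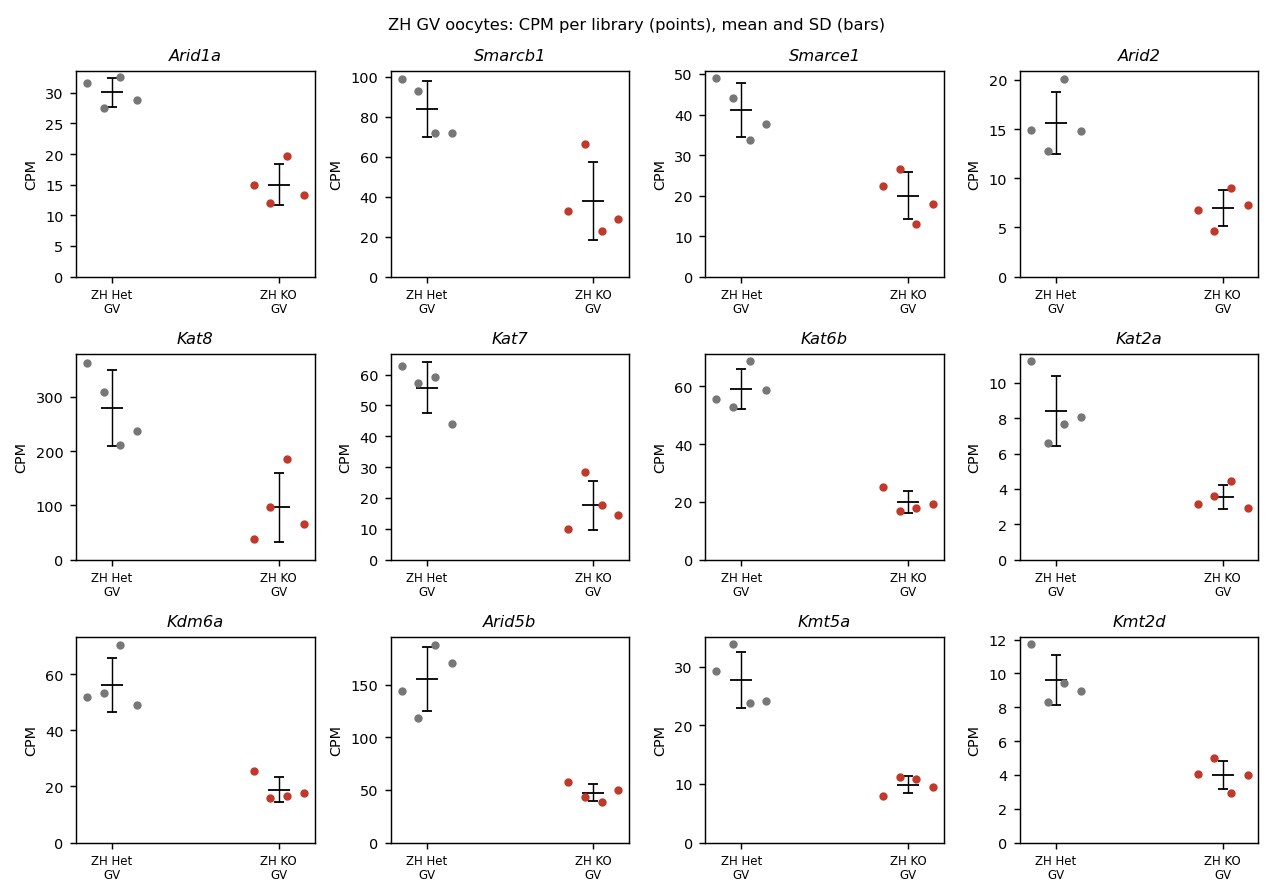
Transcript levels in CPM of 12 chromatin genes in ZH oocytes. Points are libraries, grey for ZH Het and red for ZH KO, and bars are mean ± SD (n = 4 each). Every KO library lies below every Het library in each panel, as in 22.3% of all genes tested. Smarcd2, called lower with overlapping groups, is not shown.

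Acetyltransferases also fell. In ZH KO, 5 of 7 were lower and none was higher, with a median of -1.04, beside 26.6% lower and 27.5% higher among all genes. Kat8, which acetylates lysine 16 of histone H4, ranked first of the list per kb of exon in ZH Het oocytes and second in CabZ Het oocytes. It was at 363, 309, 210 and 236 CPM in ZH Het. In ZH KO it was at 37.8, 96.3, 186 and 65.7 CPM (log2 difference -1.73, SE 0.39, adjusted p = 0.00339). The 4 KO libraries spread widely and all lay below the Het range. Kat7 (HBO1) was at 44.0 to 62.7 CPM in ZH Het and 9.94 to 28.3 CPM in ZH KO (log2 difference -1.69, SE 0.27, adjusted p = 0.000404). Kat6b, a paralogue of the MOZ family, was at 52.8 to 68.6 CPM in ZH Het and 16.8 to 25.3 CPM in ZH KO (log2 difference -1.54, SE 0.17, adjusted p = 4.3e-05). Kat2a (Gcn5) went from 8.39 to 3.53 CPM (log2 difference -1.04, adjusted p = 0.00179).

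Outside those classes the lower genes had varied functions. Arid5b, an ARID-domain DNA-binding protein, was at 144, 119, 188 and 171 CPM in ZH Het and 57.6, 43.6, 38.3 and 50.1 CPM in ZH KO (log2 difference -1.69, SE 0.19, adjusted p = 3.76e-05). Kdm6a (UTX), which removes methyl groups from lysine 27 of histone H3, was at 49.2 to 70.6 CPM in ZH Het and 15.9 to 25.6 CPM in ZH KO (log2 difference -1.54, SE 0.20, adjusted p = 9.07e-05). Kmt2d, a methyltransferase of lysine 4 at enhancers, went from 9.61 to 3.98 CPM (log2 difference -1.10, adjusted p = 0.000973), and Kmt5a, which monomethylates lysine 20 of histone H4, from 27.8 to 9.87 CPM (log2 difference -1.40, SE 0.19, adjusted p = 0.000131). Sirt7 was at 38.1 to 52.4 CPM in ZH Het and 4.81 to 35.7 CPM in ZH KO (log2 difference -1.58, SE 0.43, adjusted p = 0.00972). Others past 2-fold lower included Kdm4a, Kdm2b, Kdm7a, Brd1, Arid5a, Hdac6, Sirt5, Chd7 and Chd8, with log2 differences between -1.48 and -1.02.

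By class, 5 of 15 demethylases, 5 of 13 methyltransferases, 2 of 7 zinc-dependent deacetylases, 3 of 7 sirtuins and 2 of 8 CHD remodellers fell in ZH KO. In the same order 2, 0, 1, 2 and 0 rose. The shares of all genes tested were 26.6% lower and 27.5% higher, so several of these classes were near the share that fell. Hdac2 (log2 difference -0.82, SE 0.19), Setd2, the methyltransferase of lysine 36 (-0.76, SE 0.21), and Smarca5, the ISWI ATPase (-0.44, SE 0.14), were lower by less than 2-fold, and the Smarca5 call was made in 12 of 17 alternatives. Several well-known enzymes were not called. The log2 difference was -0.20 for the demethylase Kdm1a, -0.02 for Kdm1b, 0.03 for the NuRD ATPase Chd4, -0.26 for Kmt2b and 0.11 for Setd1b. Setd4, at 370 to 513 CPM in ZH Het and 432 to 604 CPM in ZH KO, was not called (log2 difference 0.23, adjusted p = 0.223). Chd1 was not called (0.15), but its gene model in the ZH table spans 1689932 bp and overlaps 7 other listed genes, whereas it spans 67644 bp in both CabZ tables.

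Values that moved with these results in ZH oocytes are the following, and their part in the result was not tested. Markers of the oocyte, 11 genes including Zp3, Gdf9 and Bmp15, summed to 15376 to 16849 CPM in ZH Het and 7508 to 15539 CPM in ZH KO, and 6 of 11 were called lower and 1 higher. Of 14 listed cumulus and granulosa markers, 10 in ZH Het and 7 in ZH KO were under 1 CPM, with Foxl2 and Lhcgr under it in both. The 14 summed to 416 to 606 CPM in ZH Het and 179 to 411 CPM in ZH KO, mainly Serpine2 and Cyp19a1 in both. Of the 6 tested, Fshr, Inha and Col4a1 were called higher and Serpine2 lower, with a median log2 difference of 0.48. Of 7 listed 2-cell embryo markers, including Zscan4c and Zscan4d, the sum was 142 to 179 CPM in ZH Het and 627 to 1020 CPM in ZH KO. The reads on listed genes were 74 to 75% of the total in ZH Het and 66 to 68% in ZH KO libraries. When each library was instead shifted to a common median, the all-gene median went from -0.04 to 0.16, that of the chromatin genes was -0.26, and 32 fell and 11 rose.

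In CabZ KO oocytes few chromatin genes changed. Of 89 that passed the filter, 4 rose and 2 fell, or 4.49% and 2.25%, beside 9.52% and 6.09% of all 13589 genes tested. The medians of the chromatin genes and of all genes were both -0.00. By over 2-fold, 1 rose and 0 fell (1.12%), beside 4.13% higher and 2% lower among all genes. At an unadjusted p under 0.05 there were 10 higher and 3 lower chromatin genes, beside 15.9% and 12.4% of all genes. None of the 12 tested SWI/SNF genes, and none of the acetyltransferases, zinc-dependent deacetylases, CHD remodellers or ING readers, was called. The summed level was 4271 CPM in CabZ Het and 4344 CPM in CabZ KO. The 11 oocyte markers summed to 16386 to 25246 CPM in CabZ Het and 15496 to 18003 CPM in CabZ KO, with 1 called lower, and the 2-cell embryo markers to 234 to 261 CPM and 380 to 438 CPM.

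The 4 that rose were Brd8, Sirt1, Kdm5b and Sirt3, all of which also rose in ZH KO, where 27.5% of all genes tested rose. The paper reports that, over all genes, a high share of those upregulated in CabZ mutants were also upregulated in ZH mutants. That share was not counted here, so the sharing is not shown to be particular to the chromatin genes. Brd8 was at 13.6, 12.2, 15.3 and 13.3 CPM in CabZ Het and 25, 38.2, 23.9 and 29.9 CPM in CabZ KO (log2 difference 1.03, SE 0.18, adjusted p = 0.00109). Sirt1 was at 13.2, 18.2, 17.8 and 18.2 CPM and 23.8, 47.7, 30.3 and 32.5 CPM (log2 difference 0.92, SE 0.20, adjusted p = 0.00573). Kdm5b was at 12.8, 9.55, 10.7 and 7.29 CPM in CabZ Het and 13.9, 20.5, 16.4 and 19.1 CPM in CabZ KO (log2 difference 0.74, SE 0.20, adjusted p = 0.0198). Sirt3 was at 3.33 to 5.85 CPM and 6.33 to 9.56 CPM (log2 difference 0.73, SE 0.22, adjusted p = 0.0371). In each of the 4 genes every KO library exceeded every Het library, as did 11.9% of all genes tested. The Kdm5b call was made in 13 and the Sirt3 call in 8 of 15 alternatives. Kdm5a, which rose in ZH KO, went from 6.82 to 5.92 CPM in CabZ KO and was not called (log2 difference -0.11).

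**Figure D3:**
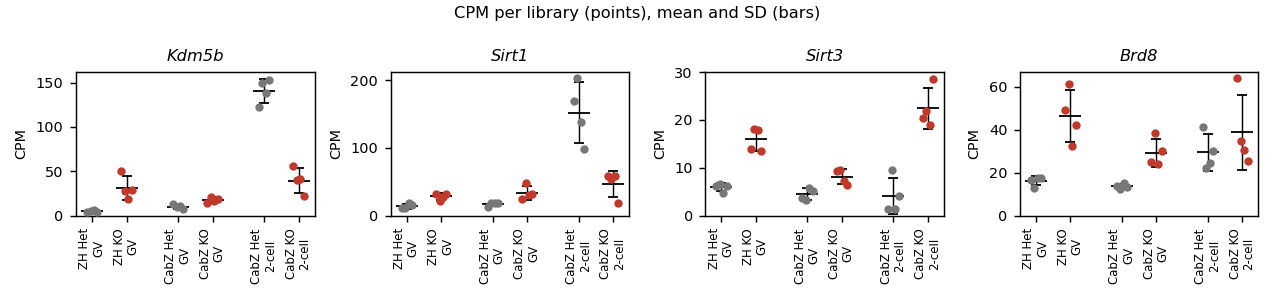
Levels in CPM of Kdm5b, Sirt1, Sirt3 and Brd8 in ZH oocytes, CabZ oocytes and CabZ 2-cell embryos. Points are libraries, grey Het and red KO, and bars are mean ± SD (n = 4 per group). In oocytes of both lines every KO library is above every Het library, and in 2-cell embryos Kdm5b and Sirt1 are lower and Sirt3 higher in KO.

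Of the 2 that fell, Kmt5a was at 26.4, 27.7, 33.6 and 27.0 CPM in CabZ Het and 17.2, 21.5, 13.2 and 13.2 CPM in CabZ KO (log2 difference -0.80, SE 0.19, adjusted p = 0.00749). It was the only gene of the list called lower in both lines. Arid3c, at 3.71 and 1.59 CPM, was called with overlapping groups (log2 difference -0.91, SE 0.26, adjusted p = 0.0277). That call was lost without Het library 1, 2 or 4 or KO library 2, 3 or 4, where Kmt5a alone was called lower. Of the 40 genes that fell in ZH KO, 27 had a log2 difference below 0 in CabZ KO, with a median of -0.14, and 1 was called. The same shares over all genes were not counted. The SWI/SNF core subunit Smarcb1 was at 86.0 ± 10.8 CPM in CabZ Het and 77.3 ± 10.2 CPM in CabZ KO (SD, n = 4; log2 difference -0.15, SE 0.14). Arid5b was at 211 and 192 CPM (-0.15, SE 0.15), Kat7 at 46.3 and 39.5 CPM (-0.24, SE 0.17), Kat8 at 183 and 150 CPM (-0.34, SE 0.18) and Kdm6a at 67.4 and 67.9 CPM (0.01, SE 0.17). The difference between the lines was not tested, since each table was normalized by itself and has its own controls.

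Between GV oocytes and 2-cell embryos, levels of many chromatin genes in the controls differed. The FPKM divided by the whole gene span gave the order of levels. Setd4, a SET-domain lysine methyltransferase, was highest in CabZ Het oocytes (55.3 FPKM), followed by Ing1, a PHD finger subunit of the Sin3 deacetylase complex (20.6), Kat8 (13.7), Setd6 (6.80) and Sirt6 (6.77). Setd6 and Sirt6 did not differ beyond their spread. In CabZ Het 2-cell embryos Ing1 was highest (32.3 FPKM), followed by Setd6 (8.51), Smarca5 (6.53), Setd2 (4.88) and Hdac2 (4.27). Counted per kb of exon, Setd4 was again highest in oocytes (212 CPM per kb), then Kat8 (63.3) and Ing1 (46.3), and Ing1 (72.8) led in 2-cell embryos, followed by Setd2 (39.0).

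Of 96 genes with at least 1 CPM in a CabZ Het group, 27 were over 2-fold higher in 2-cell embryos with no overlap, 17 were over 2-fold lower and 52 were neither, or 28.1%, 17.7% and 54.2%. By the same rule the shares of all 15240 genes were 26.7%, 29.9% and 43.4%. The stage tables were normalized separately, so this is a description with no test. Hdac1, the class I deacetylase, was at 2.79 CPM in CabZ Het oocytes and 68.3 CPM in CabZ Het 2-cell embryos. The CHD remodeller Chd1 was at 7.17 and 108 CPM, Kdm5b at 10.1 and 141 CPM, Kdm5a at 6.82 and 80.4 CPM, Sirt1 at 16.9 and 152 CPM, Setd2 at 63.6 and 420 CPM, and Kdm3a, a demethylase of lysine 9, at 1.10 and 89.2 CPM. Setd4 went the other way, from 1026 to 1258 CPM in oocytes to 27.8 to 61.1 CPM in 2-cell embryos. Kat8 was at 183 and 23.9 CPM, Kat14 at 105 and 13.2 CPM, and Kdm1b, the demethylase needed for maternal imprints, at 79.4 and 17.5 CPM.

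**Figure D4:**
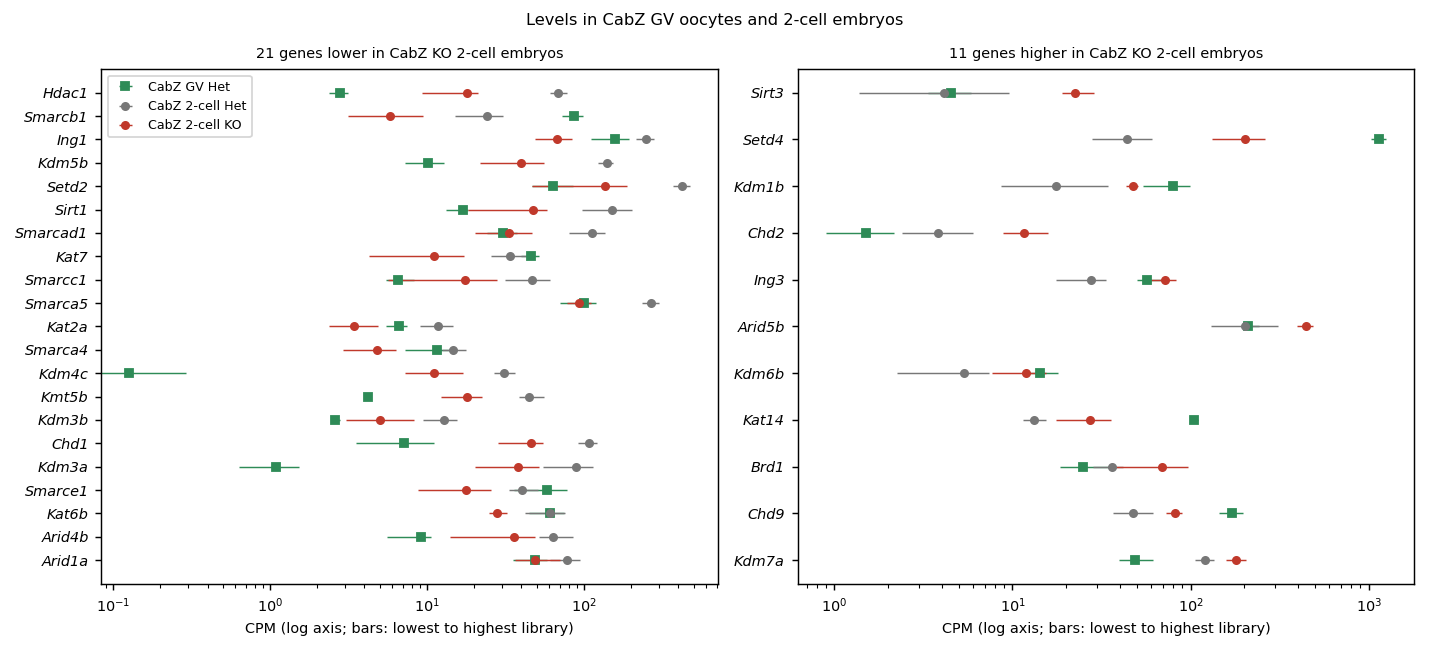
Levels in CPM, on a log axis, of the 21 chromatin genes called lower and the 11 called higher in CabZ KO 2-cell embryos. Green squares are CabZ Het oocytes, grey CabZ Het 2-cell embryos and red CabZ KO 2-cell embryos, bars run from the lowest to the highest library (n = 4 each), and the oocyte bar of Kdm4c reaches 0 and leaves the axis. Most genes called lower are higher in Het 2-cell embryos than in oocytes, and Setd4 and Kdm1b are lower.

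In CabZ KO 2-cell embryos 21 of 97 chromatin genes fell and 11 rose, or 21.6% and 11.3%, beside 19.9% and 25.8% of all 17530 genes tested. Past 2-fold, 19 fell and 7 rose, or 19.6% and 7.22%, beside 17.3% and 23.1%. The median log2 difference was -0.36 for the chromatin genes and 0.18 for all genes. With each library shifted to a common median, 20 fell and 15 rose, and the median of all genes was 0.31. Of 42 chromatin genes of at least 50 kb 13 fell and 4 rose (31% and 9.52%), beside 11.7% and 32.8% of all genes of that span. Of 55 shorter ones 8 fell and 7 rose (14.5% and 12.7%), beside 22.4% and 23.6%.

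Remodeller subunits were among those that fell. Of 13 tested SWI/SNF genes, 5 fell and none rose, and of the 4 ISWI and other SNF2 ATPases 2 fell. The shares of all genes tested were 19.9% lower and 25.8% higher. Smarca5 was at 235, 301, 268 and 267 CPM in CabZ Het and 111, 99.3, 85.9 and 77.5 CPM in CabZ KO (log2 difference -1.52, SE 0.20, adjusted p = 4.6e-05). Smarcad1 was at 79.8 to 136 CPM and 20.1 to 46.6 CPM (log2 difference -1.75, SE 0.28, adjusted p = 0.00022). Smarcb1 was at 25.9, 30.3, 24.6 and 15.0 CPM in CabZ Het and 5.65, 9.42, 3.16 and 5.16 CPM in CabZ KO (log2 difference -1.90, SE 0.37, adjusted p = 0.000984). Smarca4 went from 14.7 to 4.78 CPM (log2 difference -1.47, adjusted p = 0.00421). Chd1, which is needed for high transcription in early embryos, was at 91.9 to 121 CPM and 28.2 to 55.0 CPM (log2 difference -1.25, SE 0.25, adjusted p = 0.00121).

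Other genes that fell were Hdac1, Ing1, Kdm5b, Setd2 and Sirt1. Hdac1 was at 69.8, 61.2, 77.5 and 64.6 CPM in CabZ Het and 20.9, 20.2, 21 and 9.35 CPM in CabZ KO (log2 difference -1.93, SE 0.29, adjusted p = 0.000141). Ing1 was at 266, 281, 215 and 232 CPM and 84.0, 70.7, 67.5 and 48.8 CPM (log2 difference -1.88, SE 0.22, adjusted p = 2.17e-05). Kdm5b was at 122, 150, 138 and 153 CPM and 55.6, 39.6, 41.1 and 21.8 CPM (log2 difference -1.87, SE 0.27, adjusted p = 9.82e-05). Setd2 was at 370, 476, 417 and 417 CPM and 152, 155, 188 and 46.4 CPM (log2 difference -1.79, SE 0.34, adjusted p = 0.000731). Sirt1 was at 169, 203, 138 and 97.7 CPM and 58.4, 54.0, 57.8 and 18.2 CPM (log2 difference -1.75, SE 0.35, adjusted p = 0.00108). In all 5 genes the groups did not overlap, which was a condition for naming the largest falls. Of all genes tested, 17.7% were lower without overlap. KO library 4 was the lowest of its group in each of the 5. Kdm3a (log2 difference -1.23), Kdm3b (-1.27), Kdm4c (-1.46), Kmt5b (-1.30), Kat7 (-1.61), Kat2a (-1.51), Kat6b (-1.08), Smarcc1 (-1.58) and Smarce1 (-1.21) also fell by over 2-fold.

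Of the genes that rose, Setd4 had the highest level. It was at 61.1, 39.9, 27.8 and 47.8 CPM in CabZ Het and 131, 202, 212 and 263 CPM in CabZ KO 2-cell embryos (log2 difference 2.18, SE 0.28, adjusted p = 3.77e-05). Sirt3 was at 1.45, 9.56, 1.38 and 4.01 CPM, from 11 to 76 reads, and at 20.4, 21.8, 19.0 and 28.6 CPM (log2 difference 2.47, SE 0.47, adjusted p = 0.000723). Kdm1b was at 8.65 to 34.5 CPM and 43.3 to 50.8 CPM (log2 difference 1.58, SE 0.36, adjusted p = 0.00271), Arid5b at 131 to 310 CPM and 397 to 485 CPM (log2 difference 1.20, SE 0.24, adjusted p = 0.00104), and Ing3, a Tip60-complex reader, at 17.7 to 33.6 CPM and 58.8 to 82.8 CPM (log2 difference 1.38, SE 0.26, adjusted p = 0.000775). Chd2 (log2 difference 1.41) and Kdm6b (1.08, adjusted p = 0.0422) were the others past 2-fold, and the Kdm6b call was made in 7 of 15 alternatives. Brd8, which rose in CabZ KO oocytes, was at 29.5 and 38.7 CPM and was not called (adjusted p = 0.416).

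Set beside the stage change, 13 of the 27 genes that were higher in CabZ Het 2-cell embryos than in oocytes were called lower in CabZ KO embryos and 2 higher (48.1% and 7.41%), beside 44.5% and 7.04% of all genes that were higher by the same rule. Of the 17 that were lower in CabZ Het 2-cell embryos than in oocytes, 6 were called higher and 1 lower (35.3% and 5.88%), beside 40.8% and 4.96% of all such genes. Of the 52 others, 3 were called higher and 7 lower (5.77% and 13.5%), beside 21.2% and 16.4%. The CabZ Het 2-cell libraries enter both comparisons, so the counts are not independent of each other. In the same libraries the 11 oocyte markers summed to 1852 to 3108 CPM in CabZ Het and 4280 to 7547 CPM in CabZ KO, and 9 of 11 were called higher. The 12 listed cumulus and granulosa markers summed to 86.3 to 123 CPM in CabZ Het and 149 to 228 CPM in CabZ KO. Of the 7 tested, 5 were called higher and 2 lower. Markers of the 2-cell embryo summed to 1951 to 3048 CPM in CabZ Het and 1272 to 4096 CPM in CabZ KO, with 4 of 9 called lower and 1 higher. KO library 4 had the lowest correlation with its group mates, 0.927. The part of these in the result was not tested.

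In the libraries labelled Zscan4 OE no chromatin gene was called by limma among 81 tested (0% of the list in each direction), beside 0.139% higher and 1.02% lower among all 11550 genes. Past 2-fold the share of all genes was 0.0952% higher and 0.978% lower. At an unadjusted p under 0.05, 15 chromatin genes were higher and 4 lower, beside 9.86% and 7.68% of all genes. The median was 0.33 for the chromatin genes and 0.10 for all genes, and library B of the 3 had the highest median of its own, 0.66, beside -0.02 for A and 0.24 for C. Chd1, with the lowest adjusted p of 0.104, was at 61.0, 69.5, 47.3 and 58.6 CPM in GFP and 22.0, 37.3 and 41.6 CPM in the libraries labelled Zscan4 OE (log2 difference -0.83, SE 0.25). Its model there too spans 1689932 bp and overlaps 6 other listed genes. Smarca5 was at 45.8 to 57.4 CPM and 25.4 to 42.3 CPM (log2 difference -0.64, SE 0.22, adjusted p = 0.165). Kdm5b (log2 difference -0.07, SE 0.27) and Sirt1 (-0.08, SE 0.27) differed by less than their error. The 9 markers of the 2-cell embryo summed to 1452 to 2190 CPM in GFP and 772 to 1476 CPM in the libraries labelled Zscan4 OE, and their part in these values was not tested.

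Open chromatin at the start of these genes was compared in CabZ oocytes by counting genes with a peak summit within 500 bp of the annotated start, of 101 listed. In CabZ Het libraries A, B and C there were 10, 19 and 41 (9.9%, 18.8% and 40.6%), and in CabZ KO libraries 19, 7 and 7 (18.8%, 6.93% and 6.93%). The shares among all protein-coding genes in the table were 8.97%, 17.3% and 32.5%, and 12%, 3.74% and 4.88%. The mean was 23.3 ± 15.9 in CabZ Het and 11 ± 6.93 in CabZ KO (SD, n = 3), a difference of -12.3 with an exact permutation p of 0.3, two-sided, where 0.1 is the smallest that 3 against 3 allows. The groups overlapped, and the libraries differed in how many peaks were called, from 43399 to 111327 in CabZ Het and from 19160 to 46070 in CabZ KO. The part of the peak total in the result was not tested. Without Het library C the difference was -3.5 (exact permutation p = 0.6), and with peaks of a -log10 q of at least 5 it was -7.67 (exact permutation p = 0.4).

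**Figure D5:**
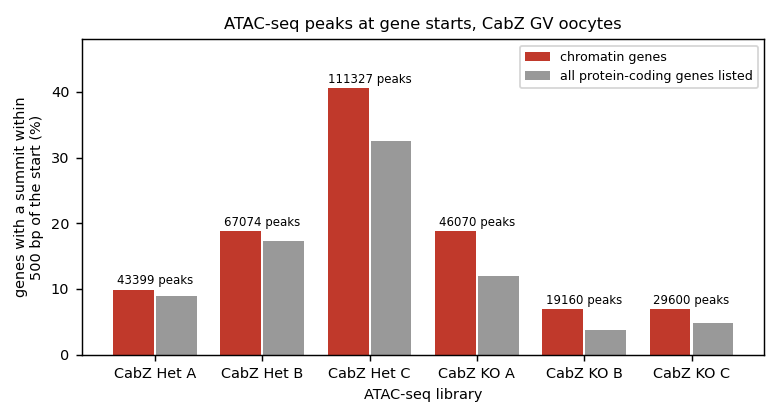
Percent of genes with an ATAC-seq peak summit within 500 bp of their start, for the chromatin genes and for all protein-coding genes listed, in each of the 3 CabZ Het and 3 CabZ KO oocyte libraries. Total peaks are printed for each library. The Het libraries run from 9.9 to 40.6% of the chromatin genes and the KO libraries from 6.93 to 18.8%.

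At the level of single genes, Ing5 alone had a summit in all 6 libraries, 54 of the 101 genes had one in none (53.5%, beside 56.7% of protein-coding genes), and 46 in some. No gene had one in all 3 libraries of one genotype and in none of the other. Sirt1 and Sirt3 had a summit in 2 CabZ KO libraries and in no CabZ Het library, with fold enrichments of 4.68 and 3.94 for Sirt1 and of 3.75 and 4.43 for Sirt3. The Sirt1 summits lay near the start that the expression table gives, not in the RefSeq window printed above, where no library had one. Kdm5b had none in any library, and Brd8 had one in 1 CabZ Het library only. Kmt5a had one in 3 CabZ Het libraries and 1 CabZ KO library. The reverse of Sirt1 and Sirt3, a summit in 2 CabZ Het libraries and in no CabZ KO library, was seen for Setd4. It was also seen for Chd1l, Hdac1, Kdm6a, Kdm8, Setd1a, Smarcb1 and Smarce1. The shares of all protein-coding genes with either pattern were not counted. At its RefSeq start Setd4 had one in CabZ Het libraries B and C and CabZ KO library A, with fold enrichments of 4, 5.28 and 3.75.

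Other genes of the same complexes, taken from lists that hold no gene named above, were counted in the same fits. In ZH KO, 5 of 10 MLL/SET1 partners, 11 of 23 Polycomb genes, 6 of 16 genes of lysine 9 methylation and heterochromatin, 4 of 12 NuRD partners, 8 of 19 INO80 and SRCAP subunits and 11 of 24 other acetyltransferases and readers fell. In the same order 0, 2, 1, 1, 3 and 1 rose. Among all genes tested 26.6% fell and 27.5% rose. Ruvbl1, an ATPase shared by the INO80 and Tip60 complexes, went from 9.32 to 35.9 CPM (log2 difference 1.84, SE 0.31, adjusted p = 0.00061), while Baz2a, the NoRC subunit that silences ribosomal genes, went from 31.6 to 9.16 CPM (-1.66, SE 0.19, adjusted p = 3.71e-05).

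In CabZ KO oocytes the same lists held few calls. In the same order 0, 1, 2, 0, 1 and 0 rose and 0, 1, 0, 0, 1 and 0 fell, beside 9.52% and 6.09% of all genes. Setdb2 rose from 44.2 to 93.4 CPM (log2 difference 1.06, SE 0.14, adjusted p = 9.17e-05) and the H3.3 chaperone Daxx from 10.5 to 22.8 CPM (1.01, SE 0.21, adjusted p = 0.00391). In CabZ KO 2-cell embryos 3 of 10, 5 of 25, 6 of 17, 6 of 13, 7 of 19 and 6 of 24 fell, and 2, 3, 4, 2, 1 and 2 rose, beside 19.9% and 25.8% of all genes. Among them, Mtf2, a Polycomb partner, went from 604 to 135 CPM (log2 difference -2.21, SE 0.28, adjusted p = 3.59e-05) and Wdr5, of the MLL complexes, from 101 to 20.9 CPM (-2.07, SE 0.35, adjusted p = 0.000298). In the libraries labelled Zscan4 OE only the Polycomb gene Pcgf5 was called, from 23.7 to 7.57 CPM (log2 difference -1.54, SE 0.25, adjusted p = 0.00503).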

How the data were processed

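Expression was measured in 31 RNA-seq libraries in 4 tables and open chromatin in 6 ATAC-seq libraries, grouped by genotype or injection, stage and replicate in the labels. Per the methods, the authors made RNA-seq libraries from pooled oocytes or embryos with a kit that does not mark strand, trimmed reads with TrimGalore, aligned them to GRCm38 (mm10) with STAR (version 2.5.3a in the submitters' processing notes) and quantified them with Partek. Judged from their values, the deposited tables for ZH oocytes and injected embryos hold FPKM divided by the whole gene span, with a small constant added. Both deposited CabZ tables hold score values that look like reads divided by the span 2 times and scaled to a common total. This too was inferred from the values. The methods describe FPKM over the exon model, so every CabZ level given here rests on that inference. Per the methods and labels, ATAC-seq reads were aligned with Bowtie2 (version 2.3), and peaks were called per library by the authors with MACS2, whose deposited files give the fold enrichment ratio over background, the -log10 p and -log10 q at the summit, and a score derived from q. How reads shared by several genes were counted is not given in the sources used here.

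CPM was FPKM times the span in kb after the constant was removed. The CabZ values were multiplied by the span and scaled to their sum first, because their unit was not FPKM. Reads were estimated from the smallest step of each library. Of low values, 81.1 to 90.9% were whole within 0.1.

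The test was that of limma (version 3.58.1, R 4.3.3), applied to log2(CPM + 1), with a mean of at least 1 CPM, an eBayes trend, Benjamini-Hochberg adjustment over all genes tested and only the groups compared in a fit. A fold on this scale understates the change of low genes. Promoter peaks were compared by an exact permutation test over libraries. The tests were tested on simulated data. The chromatin genes and gene lists were chosen with earlier results of these data known. Named genes were the 6 largest rises and falls without overlap in each comparison, all past 2-fold, a fixed list of 17, the 5 highest in CabZ Het oocytes and embryos, and up to 4 genes per comparison from the outside lists. The results of 1 gene are not reported here. Genes named otherwise, as examples of a count, were chosen after their values were seen. Alternatives were another quantity, pseudocount, filter, scaling or variance model, a replicate block and leaving out each library, and for peaks a stricter q, a wider window and any overlap. RefSeq starts were added after the data were seen. The SEs and SDs cover the spread between libraries only.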

Additional observations from a re-analysis of the deposited data

Results flagged for a closer look

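Among the named genes, 212 groups of 4 libraries were examined for a library far from its mates, and 13 stood apart where chance gives about 1 in 20. In ZH oocytes, Smarca5 was at 100.2 CPM in Het library 1 beside 83.9 to 85.8 CPM in the others and at 71.1 CPM in KO library 1 beside 62.5 to 63.2 CPM. Chd7 was at 37.4 CPM in Het library 2 beside 43.2 to 44.2 CPM, Kdm4a at 10.4 CPM in Het library 3 beside 5.83 to 6.30 CPM, and Kdm7a at 91.1 CPM in Het library 3 beside 64.3 to 67.7 CPM. Kdm6a was at 25.6 CPM in KO library 1 beside 15.9 to 17.5 CPM. In CabZ Het oocytes, Sirt1 was at 13.2 CPM in library 1 beside 17.8 to 18.2 CPM.

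In CabZ KO 2-cell embryos library 4 was far below its mates for Hdac1, at 9.35 CPM beside 20.2 to 21 CPM, and for Sirt1, at 18.2 CPM beside 54.0 to 58.4 CPM. In the same group, Chd4 was at 16.3 CPM in library 2 beside 23.4 to 23.7 CPM, Ing2 at 15.2 CPM in library 1 beside 9.64 to 10.2 CPM, and Kat8 at 19.3 CPM in library 3 beside 10.3 to 10.7 CPM. Kdm1a was at 22.2 CPM in GFP library C beside 10.0 to 11.7 CPM.

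For 3 genes CabZ KO was above CabZ Het in every oocyte library and below it in every 2-cell library, and the difference between stages was not tested. Of all genes tested, 11.9% were higher without overlap in CabZ KO oocytes and 17.7% lower in CabZ KO 2-cell embryos. The share of all genes with both was not counted, so the pattern is not shown to be particular to chromatin genes. The log2 difference was 0.92 in oocytes and -1.75 in 2-cell embryos for Sirt1, 0.74 and -1.87 for Kdm5b, and 0.57 and -1.27 for Kdm3b, whose oocyte difference was not called.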

How the results depend on the processing

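Of 114 results for named genes, 64 were called and 56 of these were called in every alternative run. The other 8 were Kdm5b and Sirt3 in CabZ oocytes, Kdm6b in CabZ 2-cell embryos, and Arid5a, Hdac1, Setd2, Smarca5 and Smarcd2 in ZH oocytes. No called result changed direction. On log2(FPKM + 1), where the filter left 22 chromatin genes in ZH oocytes, 23 in CabZ oocytes and 31 in CabZ 2-cell embryos, 2 rose and 10 fell in ZH, 0 and 1 in CabZ oocytes and 3 and 9 in 2-cell embryos, and the ZH median was -0.30. Past 2-fold, 0 rose and 3 fell in ZH, 0 rose in CabZ oocytes, and 1 rose and 4 fell in 2-cell embryos. The ZH median was -0.61 with a mean of at least 5 CPM, -0.32 with no filter, -0.26 with libraries shifted to the same median (15 genes then fell by over 2-fold) and -0.33 with libraries scaled to reads on the table. In CabZ oocytes 1 gene fell at a mean of at least 5 CPM, and 1 fell by over 2-fold with a pseudocount of 0.25. In injected embryos 1 fell under quantile normalization and under a shift to the same median.

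Leaving out 1 library at a time gave 7 to 9 higher, 33 to 43 lower and a median of -0.51 to -0.41 in ZH oocytes, 3 to 6, 1 to 4 and -0.09 to 0.08 in CabZ oocytes, 7 to 13, 19 to 24 and -0.38 to -0.22 in CabZ 2-cell embryos, and 0 to 2, 0 to 0 and 0.17 to 0.46 in injected embryos. In CabZ oocytes 1 gene fell (Kmt5a, Arid3c being lost) without Het library 1, 2 or 4 or KO library 2, 3 or 4, and 4 fell without KO library 1. In CabZ 2-cell embryos 7 rose without KO library 1. In injected embryos 1 (Sirt6) rose without GFP library C and 2 (Kdm4a and Sirt4) without library A labelled Zscan4 OE. The ATAC-seq difference ran from -19 to -3.5 (without Het library C), and was -8.67 at RefSeq starts. The cause was not tested.

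The following values of genes that were not called changed sign. In ZH oocytes, Kdm1b was at 0.13 (quantile normalization), 0.18 (same median), 0.14 (reads on the table) and -0.13 to 0.14 (libraries left out), Setd1b at -0.27 (quantile) and -0.034 to 0.20, Ing2 at 0.058 (same median), Chd4 at -0.12 to 0.10 and Kmt2b at -0.42 to 0.0040. In CabZ oocytes, Ing2 was at -0.054 (quantile) and -0.080 to 0.11, and with libraries left out Setd4 ran from -0.12 to 0.061, Smarca4 from -0.036 to 0.27, Smarca5 from -0.085 to 0.17, Sirt6 from -0.17 to 0.072, Hdac2 from -0.17 to 0.020 and Kmt2b from -0.26 to 0.018. In CabZ 2-cell embryos, Kmt2b was at -0.086 (quantile) and -0.18 to 0.32, Setd1b at -0.15 (quantile) and -0.0023 to 0.39, and Setd6 at 0.072 (quantile), 0.11 (same median) and -0.16 to 0.16. In injected embryos, Ing2 was at -0.051 (same median) and -0.059 to 0.17, Hdac2 at -0.42 to 0.18, Sirt1 at -0.20 to 0.091, Kat8 at -0.61 to 0.036 and Kdm5b at -0.20 to 0.19.

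The replicate numbers did not pair the libraries: correlations of same-numbered deviations ran from -0.34 to 0.31 in ZH oocytes, -0.07 to 0.12 in CabZ oocytes, -0.05 to 0.07 in CabZ 2-cell embryos and -0.12 to 0.06 in injected embryos. With the replicate block, 8 rose and 39 fell in ZH oocytes, 4 and 2 in CabZ oocytes, 10 and 20 in CabZ 2-cell embryos and 0 and 0 in injected embryos, where GFP library D was left out. The block gave adjusted p = 0.0574 for Sirt3 in CabZ oocytes and 0.0578 for Kdm6b in CabZ 2-cell embryos by limma.

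Depth limits the genes near 1 CPM, where a call rests on few reads, and 7 to 15 chromatin genes per table were not tested. The length by which the authors scaled a gene does not show whether reads in its introns were counted, and this was not tested.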
